A study of Mus musculus with 51 samples.

Results

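Open chromatin of the B6 and the CAST chromosome set was compared inside the same nuclei of (B6xCAST) F1 hybrid male germ cells. ATAC-seq, in which a transposase inserts sequencing adapters into open DNA, had been read per allele in 2 F1 libraries, so that every region carried a B6 and a CAST count from each library. The members were all autosomal regions with at least 20 allele counts summed over the 4 values, 69255 of the 80892 regions in the deposited allele table. The germ cells came from testes of mice 12 to 14 days old, and 1 F1 library of H3K9ac, an acetyl mark of active chromatin, was deposited in the same table. The labels name no engineered allele for the F1, which inherits the Prdm9 allele of each parent. The germ cell fraction is described as enriched rather than sorted, and whether several animals were pooled is not given in the sources used here.

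Further sets of samples served only to sort the regions into classes. ATAC of B6-Prdm9CAST-KI germ cells (KI, n = 2), from mice that carry the CAST allele of Prdm9 on a B6 background, was set against ATAC of C57BL/6J germ cells (B6, n = 2), and H3K9ac of KI germ cells (n = 2) against that of B6 germ cells (n = 3). DMC1 peaks came from testes of Hells CKO mice, a conditional knockout, and of Hells het mice, both at 6 weeks, and HELLS peaks from KI testis. The H3K9ac fit also held 1 library of Spo11 mutant germ cells. It entered the filter, the scaling and the estimate of spread, but was in neither group compared. The KI, B6 and Spo11 mutant animals of these sets were 12 to 14 days old, as the F1. KI and B6 animals have B6 chromosomes. The strain and Prdm9 allele of the Hells animals, and the promoter that drives the Cre of the Hells CKO, are not given in the labels.

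PRDM9 is a meiotic zinc-finger methyltransferase that chooses the sites of recombination, called hotspots, by binding a sequence motif, and the B6 and CAST forms of its zinc fingers bind different motifs. HELLS is a SNF2-family remodeller that opens nucleosomes, and DMC1 is the recombinase that coats the broken DNA ends at hotspots. A hotspot motif can be lost over generations in a lineage whose own PRDM9 uses it, because the broken chromosome is repaired from the other one. In an F1 both PRDM9 forms meet both sets of chromosomes in 1 nucleus, so that the alleles compared share the same nuclear proteins.

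The sequences below are examples of hotspots and of sites more open in KI than in B6. Central windows of 300 bases of each region were read from the reference, which is the B6 sequence of GRCm38 (mm10), and the CAST bases were not used here. Among patterns of 10 positions with 2 free inner positions, GNTGCTNCTG had the largest excess at hotspots with a Hells het DMC1 peak over other distal regions, and TGTGACNNTT at regions more open in KI than in B6. Either strand counted, capitals mark the match, and both patterns were chosen on these regions, so that their excess is a description. For each class and direction the 2 regions with the lowest p that held the pattern and overlapped a region of the KI and B6 table are printed, with coordinates in GRCm38 and the strand on which they read.
Hotspot in an intron of Tenm3, B6 allele higher, chr8:48342899-48343008, plus strand: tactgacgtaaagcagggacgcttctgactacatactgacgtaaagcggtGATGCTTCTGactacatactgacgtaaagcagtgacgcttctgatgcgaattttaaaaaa
Hotspot in an intron of Rgs22, B6 allele higher, chr15:36126872-36126981, plus strand: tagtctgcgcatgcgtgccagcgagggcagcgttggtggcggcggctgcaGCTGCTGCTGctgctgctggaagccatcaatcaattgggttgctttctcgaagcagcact
Intergenic hotspot, CAST allele higher, chr5:52295458-52295567, minus strand: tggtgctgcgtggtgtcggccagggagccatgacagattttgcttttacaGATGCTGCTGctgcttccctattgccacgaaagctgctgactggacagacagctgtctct
Hotspot in an intron of Zfp451, CAST allele higher, chr1:33764983-33765092, minus strand: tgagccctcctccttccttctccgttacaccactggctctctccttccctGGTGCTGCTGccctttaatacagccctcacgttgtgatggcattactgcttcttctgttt
Intergenic KI-higher site, B6 allele higher, chr17:93981301-93981410, plus strand: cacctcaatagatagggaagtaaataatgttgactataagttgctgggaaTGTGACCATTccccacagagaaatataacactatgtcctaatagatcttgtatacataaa
KI-higher site in an intron of Wdr60, B6 allele higher, chr12:116244935-116245044, minus strand: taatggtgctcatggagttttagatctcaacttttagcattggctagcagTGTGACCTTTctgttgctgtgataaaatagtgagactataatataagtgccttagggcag
KI-higher site in Suclg2, CAST allele higher, chr6:95473955-95474064, minus strand: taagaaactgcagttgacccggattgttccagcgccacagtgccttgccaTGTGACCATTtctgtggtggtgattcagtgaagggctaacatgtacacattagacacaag
KI-higher site in an intron of Cep112, CAST allele higher, chr11:108656015-108656124, plus strand: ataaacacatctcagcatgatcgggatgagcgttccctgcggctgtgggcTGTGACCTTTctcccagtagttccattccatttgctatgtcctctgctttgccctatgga

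The Tenm3 hotspot gave 116 and 122 B6 counts in libraries 1 and 2, against 26 and 36 CAST counts. Its match sits in a short tandem repeat whose units hold near copies of the pattern, and the match in Rgs22 sits in a run of CTG units. The chromosome 5 hotspot gave 41 and 51 B6 counts against 231 and 180 CAST counts. The chromosome 17 KI-higher site gave 965 and 766 B6 counts against 51 and 69 CAST counts. The Cep112 site gave 29 and 25 B6 counts against 65 and 74 CAST counts. Regions that are both hotspot and KI-higher (137) were left out of the pattern counts. GNTGCTNCTG was found in 9.54% of the remaining 3730 hotspots, in 1089 of 35116 other distal regions and in 3.88% of all 69255 regions. TGTGACNNTT was found in 8.71% of the remaining 4477 KI-higher sites, in 2.67% of other distal regions and in 2.47% of all regions. The hotspot pattern was in 9.09% of the hotspots with a higher B6 allele, 10.04% of those with a higher CAST allele and 9.45% of those not called. The KI pattern was in 9.61% of the KI-higher sites with a higher B6 allele, 6.09% of those with a higher CAST allele and 8.37% of those not called, the 6.09% resting on 7 of 115 regions. These shares were not tested against each other, and how the CAST sequence differs at the matches was not examined.

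The alleles were nearly balanced over the genome. Library 1 held 4877309 B6 and 4788184 CAST counts in autosomal regions, and library 2 held 4375264 B6 and 4313379 CAST counts. A member carried between 20 and 18980 counts, with a median of 124. The median log2 ratio of B6 over CAST was 0.02 over all members, and chromosome medians ran from −0.08 on chromosome 19 to 0.06 on chromosome 11. Chromosome X served as a check of allele assignment, since a male has only his mother's X. B6 took 93.6% of X counts in library 1 (exact 95% interval 93.5% to 93.7%) and 93.3% in library 2 (93.1% to 93.4%), intervals that cover counting error only, so the mothers were B6 and the fathers CAST. The median X region was 100% B6 in both libraries, and 24 of 1099 regions in library 1 and 25 of 1055 in library 2 had a B6 share under 50%. CAST was given 8639 of 135298 X counts in library 1 and 7991 of 118857 in library 2. Where on X these CAST counts lie was not examined, and regions shared by X and Y were not set apart. How many of the counts were given to the wrong allele was therefore not tested, nor was the part of such errors in the autosomal calls. Regions just inside the minimum, with 20 to 24 counts (n = 1806), and just outside it, with 15 to 19 (n = 1683), both had a median log2 ratio of 0.0.

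The B6 allele was higher in 4340 regions, 6.27% of those tested, and the CAST allele was higher in 3780, 5.46%, at an adjusted p under 0.05 (edgeR quasi-likelihood test with the library as a block, Benjamini-Hochberg). Together 8120 regions were called, 11.7%, and 22.8% passed at an unadjusted p under 0.05. All 8120 leaned the same way in both libraries, as a call with 2 libraries all but requires. The median size of a called ratio was 1.38 on the log2 scale, and 3031 of the B6-higher and 2878 of the CAST-higher regions differed by at least 1. Counts of exactly 0 were rare, with 7 B6-higher regions at 0 CAST counts and 4 CAST-higher regions at 0 B6 counts. On chromosome X, where a male has only his mother's copy, 664 of 1099 regions in library 1 were all B6. In library 2 it was 628 of 1055. A count of 0 therefore cannot tell how often an allele was lost. No label says that the libraries came from separate animals, so the p-values measure the spread between these 2 libraries, which may be technical. Calls were rare at low depth: 1.95% of regions with 20 to under 50 counts were called, 13.3% with 100 to under 200, 20.7% with 200 to under 500 and 18.5% with 500 or more. With DESeq2 in place of edgeR 1520 regions were higher on B6 and 1305 on CAST.

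The regions with the lowest p lay away from promoters and hardly overlapped the KI and B6 table. Above all others on B6 was an intronic region of Jarid2, a partner of the Polycomb complex, at chr13:44868958-44870783. This region held a DMC1 peak in Hells het and in Hells CKO testis, and is also in the hotspot class described below. It had 9025 and 9217 B6 counts against 347 and 391 CAST counts, a log2 ratio of 4.63 (SE 0.0575, edgeR adjusted p 2.1e-20). An intergenic region nearest to Lama2, a laminin gene, at chr10:27639164-27640228 had 7132 and 6998 B6 counts against 231 and 273 CAST counts, and its H3K9ac library gave 934 B6 and 38 CAST counts. The widest gap among the B6-higher 5 was intergenic at chr5:84660086-84660991, with 753 and 665 B6 counts against 6 and 3 CAST counts (log2 7.26). An intronic region of Itih4, an inter-alpha-trypsin inhibitor chain, stood at 1213 and 1267 B6 against 65 and 66 CAST counts in ATAC, while its H3K9ac gave 33 B6 and 28 CAST counts.

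On the CAST side, an intronic region of Mipol1 at chr12:57406355-57407756 had 345 and 302 B6 counts against 7188 and 7158 CAST counts (log2 −4.47, SE 0.0615, edgeR adjusted p 5.8e-20). An intronic region of Cd44, the hyaluronan receptor, at chr2:102829102-102829539 had 9 and 11 B6 counts against 1593 and 1558 CAST counts. An intronic region of Ppp1r12b, a regulatory subunit of myosin phosphatase, at chr1:134903543-134904774 held a Hells het DMC1 peak and had 45 and 37 B6 counts against 2038 and 2083 CAST counts. H3K9ac there gave 10 B6 and 192 CAST counts. The regions were picked for their low p, so the distance between their alleles follows from the choice. Of the 5 regions with the lowest p, 4 on the B6 side and 4 on the CAST side overlapped no region of the KI and B6 ATAC table, from which blacklisted regions had been removed according to its name. Whether these high counts come from repeated or poorly assembled DNA was not tested.

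**Figure D1:**
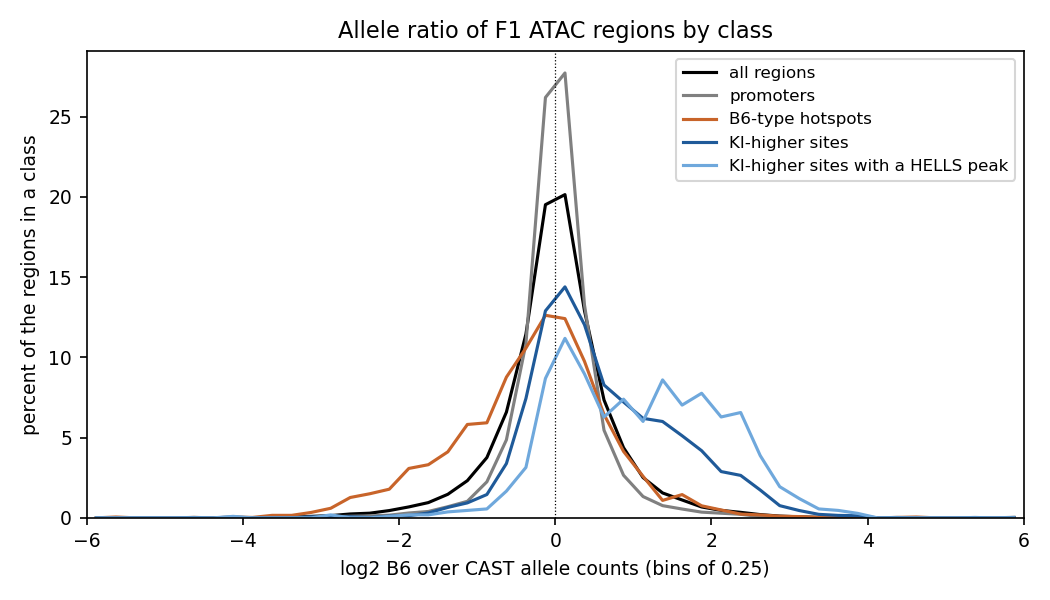
Percent of the regions of a class (y axis) by log2 ratio of B6 over CAST allele counts (x axis, bins of 0.25) for all 69255 regions and for 4 classes. Promoters are the narrowest around 0, B6-type hotspots have a longer CAST side (median −0.20) and KI-higher sites a longer B6 side (median 0.41, or 1.02 with a HELLS peak).

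Sites that were more open with CAST PRDM9 were more often higher on the B6 than on the CAST chromosome. KI-higher sites are regions that passed as higher in KI than in B6 ATAC (5847 of 81887 tested there, 7.14%) and that lie outside promoters, taken as 1000 bp either side of a transcription start. In the F1, 1488 of 4614 of them were higher on B6, 32.2% against 6.27% of all regions, and 121 were higher on CAST, 2.62% against 5.46%. Every KI-higher site overlaps the KI and B6 ATAC table, and among all members that do so 8.59% were higher on B6 and 3.53% on CAST. Their median log2 ratio was 0.41, with single-library medians of 0.46 and 0.42. The median site had 55 and 48 B6 counts in libraries 1 and 2, against 35 and 32 CAST counts. Defined by H3K9ac instead, where 12.1% of regions were higher in KI and 0.208% in B6, the class had a median of 0.26. The class is defined by strains with B6 chromosomes, so that a site open only on CAST chromosomes could not enter it, and the KI and B6 libraries also differ in the run codes that the labels give, which cannot be told apart from strain.

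KI-higher sites with a HELLS peak leaned most among the classes. Of the 1082 KI-higher sites with a HELLS peak of KI testis, 649 were higher on B6 (59.98%) and 22 on CAST (2.03%), with a median log2 ratio of 1.02. The median region of this class had 118 and 97 B6 counts against 49 and 44 CAST counts. Of the 3532 sites without a HELLS peak, 839 were higher on B6 (23.8%) and 99 on CAST (2.80%), with a median of 0.31. Sites with a HELLS peak were also deeper, at a median of 319.5 counts against 182 for all KI-higher sites, and the part of depth in the higher share of calls was not tested. The lean also went with the size of the KI gain: over 4 equal groups of sites, from the smallest log2 gain of KI over B6 (0.56 to 2.21) to the largest (3.13 to 5.45), the share higher on B6 was 16.1%, 24.5%, 35.0% and 53.5%, and the share higher on CAST was between 2.52% and 2.86%. The median counts of the 4 groups were 143, 148, 188 and 271.5, and the part of depth in this order of shares was not tested. HELLS peaks and the KI gain were read on B6 chromosomes alone, so neither split is independent of the B6 allele's openness. The medians of the 4 groups were 0.23, 0.35, 0.44 and 0.93. Within sites of 200 to under 500 counts, 46.8% were higher on B6 and 3.43% on CAST, and within sites of 50 to under 100 counts 12.1% and 0.394%.

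An intergenic KI-higher site at chr8:115653083-115655332 had 1024 and 1022 B6 counts against 25 and 22 CAST counts, a log2 ratio of 5.44 (SE 0.128, edgeR adjusted p 3.3e-16). In the other table it stood at 5.66 and 5.68 CPM in KI against 0.296 and 0.545 CPM in B6, where CPM is the count scaled to a fixed library total in regions. The site at chr17:93979689-93982973, whose sequence is shown above and which holds a HELLS peak, was at 67.3 and 58.4 CPM in KI against 3.09 and 2.47 CPM in B6, and its log2 allele ratio was 3.84 (SE 0.133, edgeR adjusted p 1.4e-13). An intron of Plxna4, a semaphorin receptor, carried a HELLS peak and a Hells het DMC1 peak at chr6:32412099-32414922 and gave 538 and 526 B6 counts against 34 and 45 CAST counts. An intron of Acot7, an acyl-CoA thioesterase, gave 511 and 488 B6 counts against 45 and 43 CAST counts. The other site of the 5 with the lowest p, an intergenic one, had 2118 and 2078 B6 counts against 390 and 406 CAST counts (log2 2.40).

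Some KI-higher sites leaned to CAST. An intron of Gbe1, the glycogen branching enzyme, at chr16:70479187-70481464 had 207 and 196 B6 counts against 1685 and 1662 CAST counts (log2 −3.05, SE 0.0776, edgeR adjusted p 1.1e-15), and its H3K9ac gave 43 B6 and 353 CAST counts. An intron of Rps6ka2, a ribosomal S6 kinase, had a HELLS peak and 204 and 173 B6 counts against 1374 and 1344 CAST counts. An intron of Jak1, the cytokine receptor kinase, had a HELLS peak and 17 and 37 B6 counts against 490 and 441 CAST counts. An intergenic site at chr4:154918550-154919641 had 54 and 65 B6 counts against 1521 and 1470 CAST counts, but its H3K9ac was 15 B6 against 17 CAST counts. Of the 121 CAST-leaning sites, 112 had 20 or more H3K9ac counts, and in 78 of these H3K9ac leaned to CAST too.

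**Figure D2:**
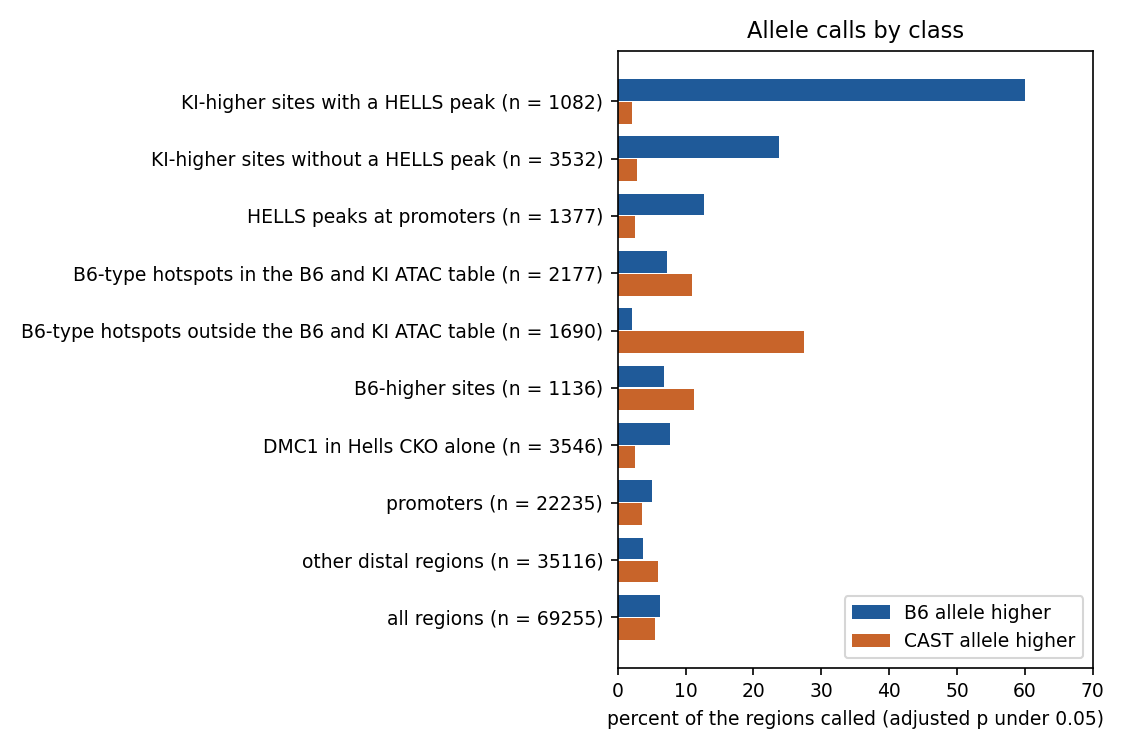
Percent of the regions of each class (x axis) in which the B6 allele (upper bar) or the CAST allele (lower bar) was called higher, with the number of regions beside the class name. KI-higher sites with a HELLS peak reach 59.98% on B6, and B6-type hotspots outside the KI and B6 ATAC table reach 27.5% on CAST.

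Hotspots of the B6 type leaned the other way. They are regions with a DMC1 peak of Hells het testis and no promoter, named for their overlap with sites that are more open in B6 than in KI. Of 3867, 195 were higher on B6 (5.04% against 6.27% of all regions) and 703 on CAST (18.2% against 5.46%). The median log2 ratio was −0.20, with single-library medians of −0.26 and −0.20, and the median hotspot had 19 and 18 B6 counts against 25 and 22 CAST counts. B6 took 44.4% of hotspot counts in library 1 and 46.0% in library 2. The Jarid2 region alone gave 9025 of the 137317 B6 counts in library 1 and 9217 of the 129223 in library 2. By depth, 2.28% of hotspots with 20 to under 50 counts were called and 62.1% of those with 500 or more, and CAST calls outnumbered B6 calls in all 5 depth groups.

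The lean was larger in hotspots that the KI and B6 ATAC table does not hold. Of 1690 hotspots outside it, 36 were higher on B6 (2.13%) and 465 on CAST (27.5%), with a median of −0.59. Of 2177 inside it 159 were higher on B6 (7.30%) and 238 on CAST (10.9%), with a median of 0.00. Over all members the same split gave 8.58% CAST and 2.51% B6 calls outside the table, and 3.53% CAST and 8.59% B6 calls inside it. A region enters that table from libraries with B6 chromosomes alone, so the split is not independent of the B6 allele's openness. Within the table, the 1136 B6-higher sites, more open in B6 than in KI (1856 of 81887 passed there, 2.27%) and 1127 of them hotspots, had 78 B6 and 128 CAST calls and a median of −0.03. The 137 hotspots that were also KI-higher had 41 B6 and 6 CAST calls and a median of 0.30.

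Hotspots that had DMC1 with and without HELLS had nearly as many B6 as CAST calls. Of 758 hotspots that also had a DMC1 peak in Hells CKO testis, 60 were higher on B6 (7.92% against 6.27% of all regions) and 68 on CAST (8.97% against 5.46%), with a median of 0.03. Of 3109 without one, 135 were higher on B6 (4.34%) and 635 on CAST (20.4%), with a median of −0.28. The deposited segmentation of the genome into 11 chromatin states put 2574 hotspots in state 7. There 105 were higher on B6 (4.08%) and 521 on CAST (20.2%), with a median of −0.30. Distal regions of state 7 as a whole had 139 B6 (4.17%) and 591 CAST calls (17.7%) among 3333. States 1 and 2 had the lowest shares of calls away from promoters, 8.78% and 7.47%, and state 10 the highest, 31.1% of 264 regions. The 3546 distal regions with DMC1 in Hells CKO alone had 271 B6 (7.64%) and 91 CAST calls (2.57%) and a median of 0.09.

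Among single hotspots, an intergenic one nearest to Egfem1 at chr3:29039351-29040297 had 65 and 54 B6 counts against 3091 and 2964 CAST counts (log2 −5.67, SE 0.0878, edgeR adjusted p 3.3e-19). One within the overlapping Kcnq1 and Kcnq1ot1 genes at chr7:143260737-143263491, an imprinted potassium channel gene and the long noncoding RNA read against it, had 69 and 51 B6 counts against 561 and 413 CAST counts (log2 −3.02). It stood at 3.69 and 5.84 CPM in KI against 18.6 and 11.3 CPM in B6. One in an intron of Lhcgr, the luteinising hormone receptor, had 33 and 37 B6 counts against 429 and 293 CAST counts. On the B6 side the hotspot with the lowest p was the Jarid2 region given above. An intergenic hotspot nearest to Fancl, a Fanconi anaemia ubiquitin ligase, at chr11:26368398-26369844 had 516 and 558 B6 counts against 25 and 15 CAST counts (log2 4.74, SE 0.171, edgeR adjusted p 2.5e-13). One in an intron of Prkch, a protein kinase C, had 899 and 908 B6 counts against 228 and 218 CAST counts, while its H3K9ac gave 29 B6 and 43 CAST counts.

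**Figure D3:**
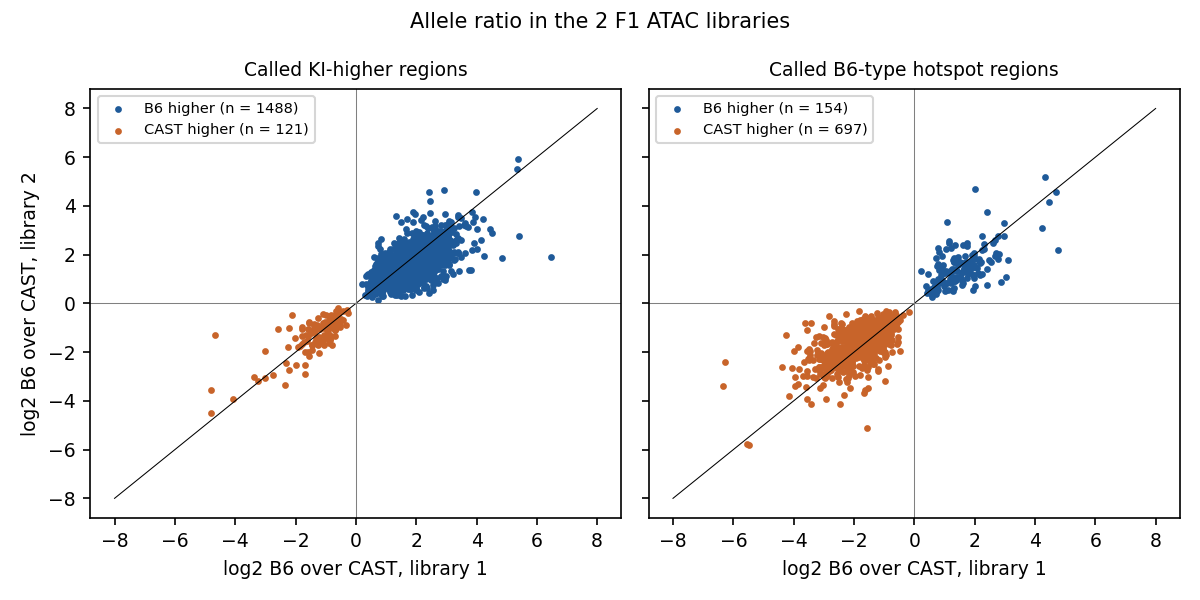
Log2 ratio of B6 over CAST in library 1 (x axis) and library 2 (y axis), with a pseudocount of 0.5, for called KI-higher sites (left, 1488 higher on B6 and 121 on CAST) and called B6-type hotspots that are not KI-higher (right, 154 and 697). All points lie in the quadrants where both libraries share the direction, which holds for all 8120 called regions, and the diagonal marks equal ratios.

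Promoters had the lowest share of calls among the 8 classes. Of 22235 promoter regions 1112 were higher on B6 and 805 on CAST, 8.62% in all, with a median of 0.02. B6 took 50.4% of promoter counts in library 1 and 50.3% in library 2. Of 1377 promoters with a HELLS peak, 175 were higher on B6 (12.7% against 5.0% of all promoters) and 34 on CAST (2.47% against 3.62%). Their median log2 ratio was 0.04, and their median depth was 807 counts against 239 for all promoters. The HELLS peaks were read on B6 chromosomes alone. Promoters with a Hells het DMC1 peak had 63 B6 (5.35%) and 130 CAST calls (11.0%) among 1178. Promoters with DMC1 in Hells CKO alone had 462 B6 (5.71%) and 237 CAST calls (2.93%) among 8086, at a median of 596 counts. The part of depth in these shares was not tested. Promoters without DMC1 in either list had 587 B6 (4.53%) and 438 CAST calls (3.38%) among 12971. The GC box (GGGCGG, either strand) was in the central window of 36.6% of promoters and 18.7% of all regions, and in 30.8% of promoters higher on B6, 28.7% of those higher on CAST and 37.2% of those not called. The CCAAT box was in 29.9%, 29.6% and 28.2% of the same 3 groups and in 32.7% of all regions. The ETS motif CCGGAAG was in 8.27%, 8.45% and 8.35% of them, and in 5.29% of all regions. The CTCF core AGGNGGCAG was in 4.23%, 4.10% and 4.12%, and in 3.49% of all regions.

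The coding promoters with the lowest p on the B6 side were mostly KI-higher regions at promoters. Of the 10, 8 overlapped a KI-higher region and 7 a HELLS peak. The region at Col4a1, a basement membrane collagen gene, at chr8:11239561-11243036 had 455 and 323 B6 counts against 83 and 81 CAST counts, a log2 ratio of 2.24 (SE 0.138, edgeR adjusted p 8e-10). It stood at 28.0 and 25.6 CPM in KI against 2.92 and 4.59 CPM in B6. The regions at Kcnj15, an inward-rectifier potassium channel, and at Ints13, an Integrator subunit, had log2 ratios of 2.44 and 3.0. The ratios at Apbb2, at Tacc2, a centrosomal protein, and at Ipo5, an importin, lay between 1.67 and 2.48. The 2 that overlapped no KI-higher region, at Sf3a1, a splicing factor, and at Zbed6 with Zc3h11a, did not differ between KI and B6 past the threshold. Sf3a1 had 323 and 295 B6 counts against 88 and 95 CAST counts, and H3K9ac gave 156 B6 and 161 CAST counts.

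On the CAST side none of the 10 was KI-higher, 2 had a HELLS peak and 4 a Hells het DMC1 peak. Psmd12, a lid subunit of the proteasome, had 210 and 148 B6 counts against 1541 and 1488 CAST counts at its start (chr11:107478186-107481092), a log2 ratio of −3.09 (SE 0.0941, edgeR adjusted p 1.6e-14), and H3K9ac gave 190 B6 and 313 CAST counts. Ddhd2, a phospholipase, had 323 and 325 B6 counts against 1318 and 1215 CAST counts, while H3K9ac gave 353 B6 and 358 CAST counts. Mtg1, a mitochondrial GTPase, had 291 and 323 B6 counts against 792 and 764 CAST counts, and its H3K9ac leaned the other way, with 194 B6 and 157 CAST counts. The region at Rgs19, a regulator of G protein signalling, had 77 and 40 B6 counts against 664 and 495 CAST counts, and H3K9ac followed with 15 B6 and 208 CAST counts. Myt1, a neural zinc-finger factor, was at 6.3 and 6.0 CPM in KI against 58.4 and 47.8 CPM in B6, and had 258 and 168 B6 counts against 752 and 583 CAST counts in the F1. Slc35a1, the CMP-sialic acid transporter, Glrx2, a mitochondrial glutaredoxin, Etv6, an ETS repressor, Arv1, a lipid regulator, and Ptprg, a receptor phosphatase, had log2 ratios between −3.1 and −1.63.

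The share of promoters called ran from 2.67% to 19.2% over 6 gene families, against 8.62% of all annotated genes with a promoter region. Of 344 Zfp promoters 23 were higher on B6 and 12 on CAST, 10.2%, with a median of 0.02, and with DESeq2 3 and 3. Olfactory receptor promoters had 3 B6 and 6 CAST calls among 99, 9.09%, and 1 and 2 with DESeq2. Ribosomal protein promoters had 2 B6 and 0 CAST calls among 75, 2.67%, with 8 and 3 at an unadjusted p under 0.05 and 0 with DESeq2. Histone genes had 7 B6 and 3 CAST calls among 52, 19.2%, of which 5 and 3 were also called with DESeq2, and several of them share a region. Vomeronasal receptor promoters had 1 call among 15, on CAST (6.67%), and promoters of H2 genes 1 among 19, on B6 (5.26%). With DESeq2 the vomeronasal promoters had 1 call, on CAST, and the H2 promoters 0.

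Imprinted genes, read from 1 parental chromosome, had the highest share of calls of the 11 gene lists. With B6 mothers and CAST fathers, the CAST chromosome is always the paternal one, and strain and parent of origin cannot be told apart in this cross. Of 36 imprinted genes with a tested promoter, 1 was higher on B6 and 9 on CAST, 27.8% against 8.62% of all annotated genes with a promoter region, and the list's median was −0.24 against 0.02. The 36 genes used 33 distinct regions, of which 1 was called for B6 and 8 for CAST, and 23 had a ratio below 0.

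All 9 genes with a higher CAST allele are known as paternally expressed in mouse. Peg13, a noncoding RNA, had 149 and 125 B6 counts against 380 and 383 CAST counts, a log2 ratio of −1.48 (SE 0.119, edgeR adjusted p 3.6e-08). Peg12 had 71 and 55 B6 counts against 155 and 163 CAST counts, and Zrsr1, a splicing factor retrogene, 144 and 95 B6 counts against 248 and 234 CAST counts. In all 3 the CAST counts exceeded the B6 counts in both libraries. The region shared by the divergent genes Peg3, a zinc-finger protein, and Usp29, a deubiquitinase, had 1179 and 833 B6 counts against 1927 and 1664 CAST counts, a log2 ratio of −0.85 (SE 0.0682, edgeR adjusted p 3.6e-08). Impact, a translation regulator, had a ratio of −0.93, Snrpn, a small nuclear ribonucleoprotein, −0.56, Mcts2, a retrogene within H13, −0.48, and Kcnq1ot1 −0.44. The region called for B6 was that of Igf2r, the mannose 6-phosphate receptor, known as maternally expressed, with 247 and 172 B6 counts against 159 and 145 CAST counts (log2 0.45, SE 0.139, edgeR adjusted p 0.0393). H3K9ac leaned the same way as ATAC in all 9 called regions, for instance 169 B6 and 394 CAST counts at Peg13 and 122 B6 and 57 CAST counts at Igf2r. None of the CAST-higher ratios came near full absence of the B6 allele. With DESeq2 the calls of Snrpn, Mcts2, Kcnq1ot1 and Igf2r were lost, and that of Igf2r also without the library block and with a minimum of 10 counts or none.

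Imprinted genes that did not pass gave ratios on both sides. Mkrn3 had a log2 ratio of −0.84, Magel2 −0.79, Plagl1 −0.64 and Mest −0.59, and their edgeR adjusted p was 0.0857, 0.116, 0.068 and 0.0609. Zim1 had 0.23, H19 0.23, Meg3 −0.19 and the region shared by Gnas and Nespas −0.01. Of the 10 called genes, 8 had a RefSeq promoter inside the called region, 250 bases before to 50 after a start in GRCm38.p6. These held between 7 and 34 CpG dinucleotides, the target of DNA methylation, against a median of 7 over all 32851 RefSeq promoters. The RefSeq promoters of Peg3, the lowest p among the 8, and of Igf2r, higher on B6, are given with CpG in capitals, to show the base composition of both directions.
Peg3, CAST allele higher, chr7:6730370-6730669, minus strand: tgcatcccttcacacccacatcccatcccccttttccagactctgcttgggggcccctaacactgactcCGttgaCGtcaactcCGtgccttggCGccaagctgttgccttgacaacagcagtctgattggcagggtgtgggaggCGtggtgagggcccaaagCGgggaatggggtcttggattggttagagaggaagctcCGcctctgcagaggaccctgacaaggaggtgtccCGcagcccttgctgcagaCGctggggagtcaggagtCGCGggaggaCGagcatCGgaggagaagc
Igf2r, B6 allele higher, chr17:12769657-12769956, minus strand: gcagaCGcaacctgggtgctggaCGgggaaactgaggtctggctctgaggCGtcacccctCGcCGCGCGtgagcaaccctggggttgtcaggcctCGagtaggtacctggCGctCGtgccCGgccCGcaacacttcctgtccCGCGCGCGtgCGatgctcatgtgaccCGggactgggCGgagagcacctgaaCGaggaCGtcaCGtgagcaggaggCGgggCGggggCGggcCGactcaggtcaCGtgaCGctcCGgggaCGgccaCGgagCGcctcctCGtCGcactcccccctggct
The Peg3 window holds 13 CpG, more than 62.1% of RefSeq promoters, and the Igf2r window 34, more than 92.3%.

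**Figure D4:**
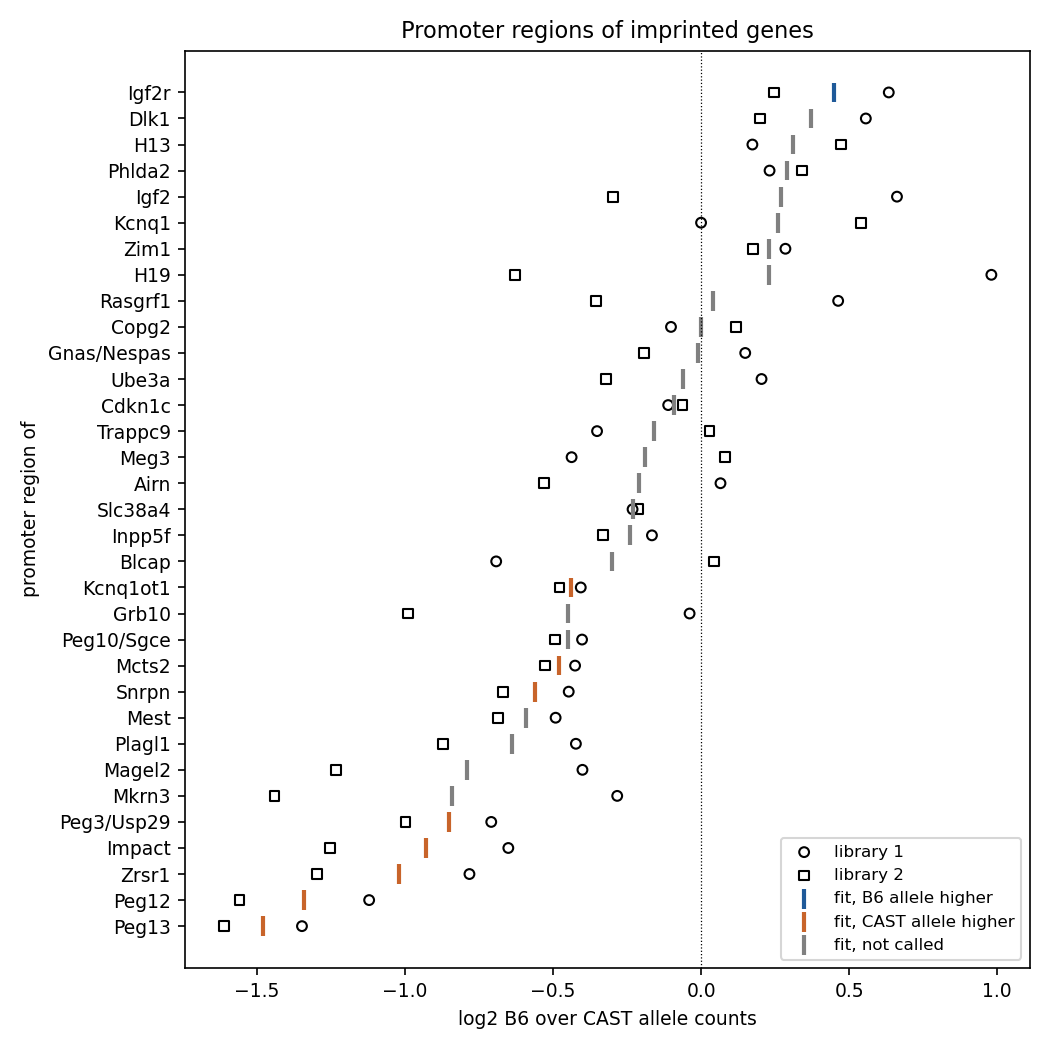
Log2 ratio of B6 over CAST (x axis) at the 33 promoter regions of imprinted genes, with 1 open symbol per library (pseudocount 0.5) and a bar for the fit, coloured by call. At the CAST-higher regions both libraries lie left of 0, from Peg13 (−1.48) to Kcnq1ot1 (−0.44), and at Igf2r (0.45) both lie right of it.

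Markers of other testis cells were open in these libraries. Of 17 Sertoli cell genes, which mark the somatic nurse cells of the tubule, 15 had a tested promoter, with 230 to 2618 counts, including Wt1, Sox9, Gata4 and Amh. Summed over the tested promoters they took 551 CPM in library 1 and 573 in library 2, against 521 and 455 for 7 germ cell markers (Ddx4, Dazl, Sycp1, Sycp3, Dmc1, Stra8 and Kit). The sums run over 15 and 7 promoters, so they do not compare the amounts of Sertoli and germ cells. Leydig cell markers (2 of 8 tested, none of them Cyp11a1, Cyp17a1, Star or Insl3) took 12.9 and 14.5, blood and macrophage markers (2 of 10, without Cd68, Csf1r, Adgre1 and Spi1) 15.9 and 15.1, and peritubular, stromal and endothelial markers (9 of 12) 234 and 262. An open promoter does not tell the cell type from a ready but silent gene, and somatic cells are known to keep parental imprints that germ cells replace. The part of somatic cells in the imprinted ratios was not tested.

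Most promoters of genes of PRDM9 function and meiosis did not pass the test. The same held for all annotated genes with a promoter region, of which 8.62% were called. The Prdm9 promoter had 340 and 304 B6 counts against 346 and 281 CAST counts, and the Hells promoter 272 and 248 B6 counts against 277 and 201 CAST counts, and neither passed the test (log2 0.04 and 0.13, edgeR adjusted p 0.869 and 0.589). Among 18 genes of PRDM9, HELLS and partners, Ewsr1, an RNA-binding protein that contacts PRDM9, was higher on B6 (0.45), and Cxxc1, a CpG-binding subunit of the SET1 complex (−0.30), and Setdb1, an H3K9 methyltransferase (−0.81), were higher on CAST, 16.7% of the list against 8.62% of all annotated genes with a promoter region. Setdb1 had 92 and 58 B6 counts against 137 and 124 CAST counts. Of 36 promoters of meiotic prophase and recombination genes 3 were higher on B6 and 1 on CAST, 11.1% against the same 8.62%. The 3 were Sycp2, a synaptonemal complex protein (0.50), Hormad2, an axis protein (0.56), and Mcmdc2, a strand invasion factor (0.41), and the CAST-higher one was Brca2, a recombination mediator that binds DMC1 (−0.33). Sycp2 had 657 and 522 B6 counts against 489 and 347 CAST counts.

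Against 8.62% of all annotated genes with a promoter region, spermatogonial genes had 2 CAST calls among 20, Dmrt1, a sex-determination factor also on the Sertoli list (−0.56), and Foxo1, a transcription factor of stem spermatogonia (−0.25). The piRNA genes had 1 B6 call among 18 (5.56%), Pld6, the mitochondrial nuclease or phospholipase of piRNA production (0.82). Acta2, smooth muscle actin of peritubular cells, was higher on CAST (−0.42). The 18 pachytene and spermatid, 18 housekeeping, 7 germ cell, 2 Leydig and 2 blood promoters had 0 calls with edgeR and 0 with DESeq2. At an unadjusted p under 0.05 these lists had 3, 4, 0, 1 and 0, all on the B6 side, where all 22846 genes had 2533 on B6 and 1862 on CAST. All 11 called promoters outside the imprinted list lost their call with DESeq2, and those of Cxxc1, Brca2, Mcmdc2 and Foxo1 also without the library block. Those of Cxxc1, Mcmdc2 and Foxo1 were lost with a minimum of 10 counts or none too.

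H3K9ac of the F1, which the rule did not use, mostly leaned with ATAC. It was a single library, so its ratios have no replicate error and no test. Of the 4340 B6-higher regions 3724 had at least 20 H3K9ac allele counts, and in 3392 of them H3K9ac was higher on B6. Of the 3780 CAST-higher regions 3190 had enough counts, and in 2788 H3K9ac was higher on CAST. Across 51013 regions Pearson's r of the ATAC and H3K9ac log2 ratios was 0.672 and Spearman's rho 0.496, a description over regions that share reference, allele assignment and animals of 1 cross. At called KI-higher sites H3K9ac was higher on B6 in 1422 of 1443 B6-higher sites, with a median log2 ratio of 2.27. At called hotspots it was higher on B6 in 142 of 159 B6-higher hotspots, with a median of 1.46, and on CAST in 618 of 632 CAST-higher ones, with a median of −2.37. At promoters it followed in 868 of 1006 B6-higher and 547 of 721 CAST-higher regions, with medians of 0.52 and −0.46.

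**Figure D5:**
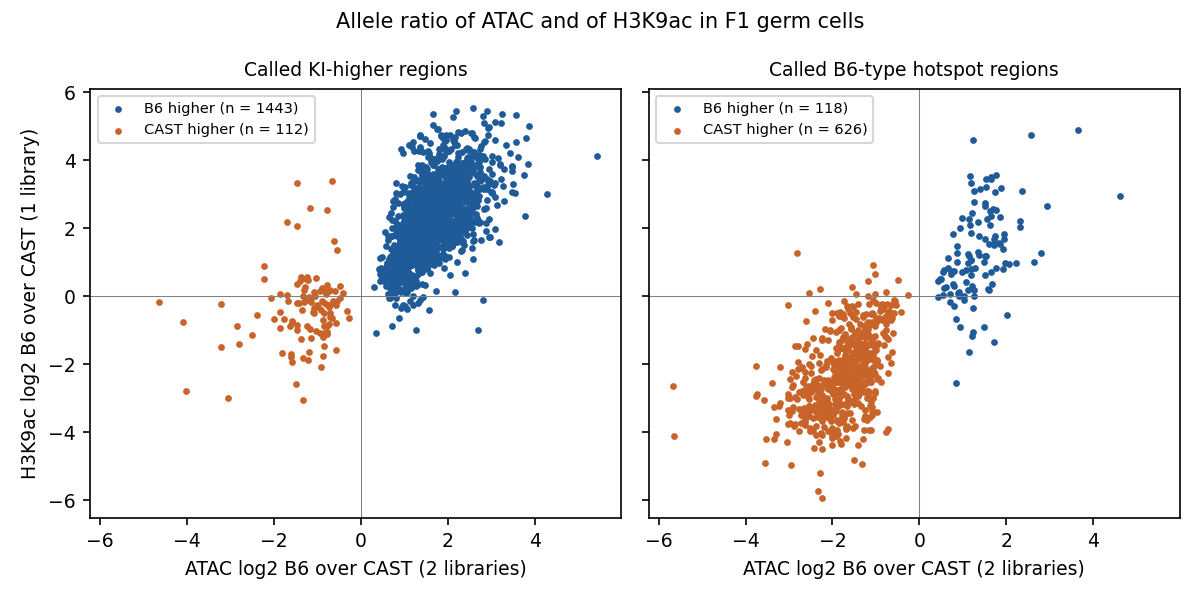
ATAC log2 ratio of B6 over CAST from 2 libraries (x axis) and H3K9ac log2 ratio from 1 library with a pseudocount of 1 (y axis) for called KI-higher sites (left, 1443 B6-higher and 112 CAST-higher) and called B6-type hotspots that are not KI-higher (right), each with at least 20 H3K9ac counts. Most points lie in the quadrants of equal direction, and CAST-higher KI sites straddle 0 in H3K9ac (78 of 112 below it).

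Neighbouring called regions shared a direction about as often as not. Of 418 pairs of consecutive called regions less than 10000 bp apart, 227 leaned the same way, 54.3%, and between 10000 and 50000 bp it was 51.4% of 1333. At 50000 to 200000 bp it was 1381 of 2821. Beyond 200000 bp it was 50.2% of 3529.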

How the data were processed

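The authors' deposited allele table gave estimated counts per region and allele, not scaled, and its values are whole numbers, so rounding to whole numbers changed nothing. Its name points to EMASE, and how reads without an allele-specific base were shared is not given in the sources used here. The deposited ATAC and H3K9ac tables of KI and B6 hold raw counts per region. Peaks and chromatin states are the authors' deposited lists. The submitters' processing notes name mm10, CASAVA, BWA 0.7.15, Bowtie 0.12.9 and MACS 1.4.2 without roles. In the allele table, 8 columns matched no sample and were not used.

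Allele counts were tested with edgeR 4.0.16 in R 4.3.3 (quasi-likelihood, library block, both alleles scaled by their library's total, no further normalisation, Benjamini-Hochberg threshold 0.05), on autosomal regions with 20 or more counts. The block holds because both alleles come from the same library. Counts of the 2 libraries differed by more than counting noise (chi-square 2.14 per region), and the B6 and CAST deviations of a library correlated at 0.038 over regions; they were counted as 2 libraries, as labelled. KI and B6 were compared with edgeR and TMM scaling, with the Spo11 mutant library as a further group of the H3K9ac fit. The fit was tested on simulated data.

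Overlap meant at least 1 bp, starts came from GENCODE M21, and a gene's promoter was its overlapping region with most counts. DESeq2 1.42.0 was an alternative test. Of the list symbols, those missing from the annotation were not analysed here. Members, classes and the 11 lists (and 6 families) were chosen with earlier results of these data known. Regions were named by lowest p: 5 per direction over all regions, B6-type hotspots and KI-higher sites, 10 per direction at coding promoters, plus called promoters of listed genes, Prdm9 and Hells. The text describes part of them singly, and some are not reported here. The printed sequences were picked by a rule set after the classes were seen, and regions on 1 chromosome were not used for them.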

Additional observations from a re-analysis of the deposited data

How the results depend on the processing

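The counts of calls stayed within 1.5 times under TMM factors per allele column, minimums of 10, 50 or 0 counts, no replicate block (4610 B6 and 4063 CAST calls), robust fitting, equal-valued regions left out and a required log2 ratio of 1 (chosen after seeing the data). Robust fitting gave 5283 B6 and 4615 CAST calls. Leaving out the 122 equal-valued regions gave 5198 and 4575. With DESeq2 the calls fell to 1520 on B6 and 1305 on CAST, all of them also called by edgeR. On the regions of the KI and B6 ATAC table alone, an alternative also chosen after seeing the data, B6 calls were 3718 and CAST calls 1529. The cause was not tested. Of 67 named regions 15 lost their call under at least 1 alternative, and 0 reversed. The 15 were all called promoters of listed genes, of which there were 11 outside the imprinted list and 9 distinct regions in it. All 15 were lost with DESeq2. The other named regions were picked for their lowest p, and so could hardly lose a call, or, as Prdm9 and Hells, had none.

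Class medians moved as follows, in log2. With TMM factors they were 0.00 for all regions, 0.00 for promoters, 0.07 for DMC1 in Hells CKO alone and −0.03 for other distal regions. In the KI and B6 table they were 0.06 for all regions, 0.00 for B6-type hotspots and 0.05 for other distal regions. A minimum of 50 counts gave −0.25 for hotspots, −0.08 for B6-higher sites and −0.02 for other distal regions, and a minimum of 10 gave 0.00 for other distal regions. The midpoint rule gave −0.26 for hotspots, 1.11 for KI-higher sites with HELLS and 0.00 for other distal regions. Classes from H3K9ac gave 0.26 for KI-higher sites and −0.02 for other distal regions. Leaving out replicate 1 or 2 gave 0.00 to 0.01 for all regions, 0.00 to 0.02 for promoters, −0.26 to −0.20 for hotspots, 0.42 to 0.46 for KI-higher sites, 0.99 to 1.07 with HELLS, −0.06 to 0.00 for B6-higher sites, 0.10 to 0.12 for DMC1 in Hells CKO alone and 0.00 for other distal regions. With 1 library left no test was made. Regions under 50 counts were seldom called, and a missing call there cannot tell balanced alleles from too few counts. Having 2 libraries of 1 cross direction limits every comparison.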
